A study of Mus musculus with 16 samples.

Results

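Classical monocytes of the naive mouse spleen were chosen among viable CD45+ cells by their unique molecular identifiers (UMIs), the tags that count single captured mRNA molecules. A cell was taken when it held at least 2 UMIs of Ly6c2, at least 1 of Csf1r or Ccr2, and at least 1 of Lyz2. The sum of C1qa, C1qb, and C1qc had to be below 3, and no UMI of Cd3e, Cd3d, Cd3g, Cd79a, or Siglech was allowed. This gate kept 226 of 47060 cells, or 0.480% (Clopper-Pearson 95% interval 0.420 to 0.547, counting error only). The matrix joined 5 libraries, called libraries 1 to 5 here, of spleens from untreated wild-type C57BL/6J (B6) mice. The spleens had been mashed and freed of red blood cells by lysis before the CD45 sort. The methods of the study treat every mouse as its own sample, but the sources used here neither count the naive mice nor tie the 5 library tags to them. With the library as a block, the p-values within the spleen thus measure how a difference between populations varied among libraries. Against rejecting kidney they measure the spread between libraries. Either may be variation between mice or technical. The same gate was applied to the CD45+ cells of rejecting kidneys, with 2 libraries of B6 kidneys that had been in DBA/2J recipients for 1 week. Those kidneys were perfused and digested with collagenase. DBA/2J and B6 are inbred strains of different H2 haplotypes. The study as a whole compared accepted and rejecting kidney allografts, with naive spleen as the resting reference.

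Classical monocytes are short-lived myeloid cells that leave the bone marrow by way of the chemokine receptor Ccr2 and depend on the receptor Csf1r. The spleen holds a reserve of them in the red pulp, from which they can be sent to inflamed tissue. Some turn into nonclassical monocytes, which patrol vessels and depend on the nuclear receptor Nr4a1, and others take up antigen and become macrophages or cells that resemble dendritic cells.

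The genes of the gate are given as a description only. Members held 2 to 51 UMIs of Ly6c2, with a median of 8, and 203 of the 226 cells held UMIs of both Ccr2 and Csf1r. At the edge of the gate, 21 members held 2 UMIs of Ly6c2 and 19 held 3, whereas 32 cells with 1 UMI met every other condition. A further 74 cells failed only through a UMI of a lymphocyte or plasmacytoid gene, and 18 only through C1q. Of those 74 cells, 62 (83.8%) carried at least 4 of the 9 markers described below that the gate did not use. The gate therefore left out cells that shared these markers with the members. The members were deep, with a median of 6580 UMIs (571 to 17601) and 2341.5 genes per cell, against library medians of 2716 to 3372 UMIs over all cells. Counted over all cells, the 5 libraries held 3.01e7 to 3.70e7 UMIs each. Summed over the members, the depth was 623606, 144781, 629778, 163373, and 27877 UMIs in libraries 1 to 5, so 1 UMI in library 5 was worth 35.9 CPM, the UMIs of a gene per 1e6 UMIs summed over the cells. All 21 pairs of the 7 spleen and kidney libraries shared cell barcodes, with at most 31 shared by a pair, and at most 0.396% of the smaller library in any pair. None of the members was among the 4681 cells of the naive spleen that were deposited as CD8+ T cells. The doublet caller Scrublet marked 1 member, but it marked only 1 of 11340 cells in library 1 and had not worked there.

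The share of classical monocytes was uneven among the 5 libraries. Libraries 1 to 5 held 94, 23, 79, 24, and 6 members. The mean share was 0.463% ± 0.366 of CD45+ cells (SD, n = 5 libraries), with a lowest share of 0.0627%, a median of 0.286%, and a highest share of 0.875%, 14-fold above the lowest. Libraries 1 and 3 stood apart and held 173 of the 226 members (76.5%). The same libraries held 259 of the 288 cells of a neutrophil gate (89.9%), whose share ran from 0.0883% to 1.44%. Nonclassical monocytes were spread more evenly, with 26, 10, 29, 15, and 14 cells. Thus there were 3.62 classical monocytes per nonclassical monocyte in library 1 and 0.429 in library 5. The part of the animals and of the preparation in this unevenness was not tested. Without libraries 1 and 3 the share over the remaining cells was 0.199%.

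**Figure D1:**
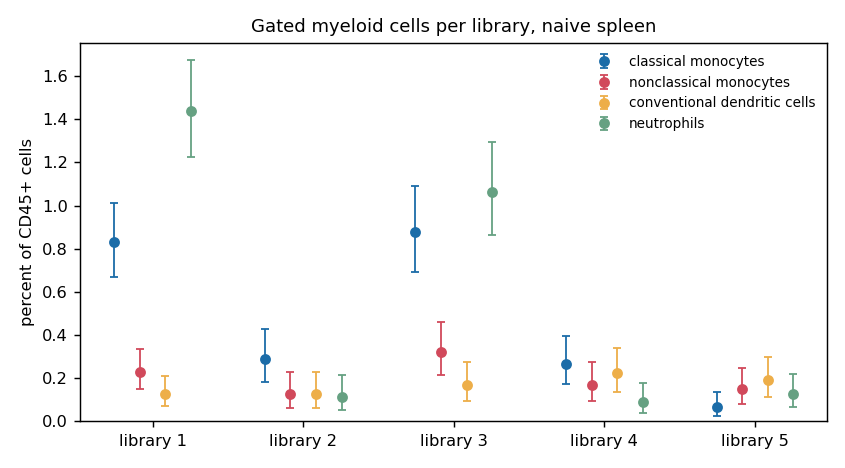
Share of CD45+ cells (percent, vertical axis) of 4 gated myeloid populations in each of the 5 naive spleen libraries, with Clopper-Pearson 95% intervals as bars. Classical monocytes and neutrophils are high in libraries 1 and 3, while nonclassical monocytes and dendritic cells are at most 0.321% in every library.

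The label was checked with 9 markers of classical monocytes that the gate did not use. They were Chil3, Fn1, F13a1, Vcan, Hp, Mgst1, Gpr141, Ccl9, and Ms4a4c. The members carried a median of 8 of the 9, and 215 of 226 (95.1%) carried at least 4. In other populations of the same spleens this count reached 23.4% of nonclassical monocytes, 9.03% of neutrophils, 1.30% of conventional dendritic cells (cDCs), 0.108% of T cells with at least 2 Ly6c2 UMIs, and 0.0936% of B cells. Median depths were 6580 UMIs in the members, 3763.5 in nonclassical monocytes, 1722.5 in neutrophils, 6391 in cDCs, and 2728 in B cells. The gate thus held cells with the markers of its label, apart from 11 members with fewer than 4, of which 3 are among the 6 cells with neutrophil granule genes described below.

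Matrix and plasma proteins made up part of this program. Fn1, which encodes the matrix protein fibronectin, was at 1113, 2031, 1631, 1175, and 969 CPM in libraries 1 to 5. At median depths of 6580 and 3855 UMIs, 89.8% of the members and 0.0880% of T cells held a UMI of Fn1. F13a1, the catalytic subunit of coagulation factor XIII, was at 1119, 863, 1156, 1120, and 502 CPM. Fn1 varied by little more than a factor of 2 between libraries, and F13a1 was lowest in library 5. Vcan, the proteoglycan versican, was uneven, at 693, 89.8, 616, 190, and 108 CPM, and libraries 1 and 3 were above the others without overlap. Hp, haptoglobin, which binds free hemoglobin, was at 916, 504, 926, 526, and 287 CPM and was again highest in libraries 1 and 3. Chil3, a chitinase-like secreted protein, was at 2022, 884, 2333, 796, and 1829 CPM, so that library 5 stood with libraries 1 and 3 here. Ly6c1, the neighbor gene of Ly6c2, was nearly absent, with 1 UMI in all members.

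RNA of other cell types was present at levels that differed by list. Of the T cell list, the members held between 9.53 and 69.1 CPM in sum, where T cells of the same libraries held 5021 to 5640 CPM. The B cell list, at 179 to 435 CPM, was near its level in T cells (326 to 444 CPM) and far below that of B cells (19566 to 22052 CPM). Lists of other myeloid cells were not near 0. The nonclassical monocyte list was at 1219 to 2332 CPM in the members and 3706 to 7108 CPM in nonclassical monocytes. The cDC list was at 346 to 637 CPM against 2849 to 3377 CPM in cDCs, with 6 of its 14 genes in under 2% of the members. The plasmacytoid, plasma cell, and red pulp macrophage lists were at 251 to 520, 257 to 430, and 108 to 615 CPM, and the neutrophil list, described next, ranged from 251 to 28247 CPM. The part of these levels in the results was not tested. Clec9a and Xcr1, defining genes of type 1 cDCs, were at 0 in 4 of the 5 libraries each. Cd209a, another gene of the cDC list, had 65 UMIs in the members (40.9 CPM), so the list was not absent as a whole. Ighm, the heavy chain of IgM, was found in 26.2% of the members after each cell was thinned to 1500 UMIs, and in 30.02% of T cells, which do not make it (median depths 6580 and 3855 UMIs), so it is not read as expression here. Of the 3 genes that mark early granule formation, Mpo and Elane were found in 4 and 8 members, but Prtn3, proteinase 3, in 79 (35.0%, against 0.0264% of T cells). Prtn3 was at 237, 0, 119, 18.4, and 0 CPM, and libraries 1 and 3 were again above the rest.

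A small group inside the gate carried neutrophil granule genes. Camp, Ngp, and Ltf, which encode proteins of secondary granules, were summed per cell. In 6 members, 4 of library 1 and 2 of library 3, the sum was 275 to 1829 UMIs, whereas the other 220 members held at most 1 UMI, and only 3 of them held that one. The 6 cells had no UMI of Fn1, at most 2 of F13a1, 5 to 25 of Ly6c2, and 10 to 109 of Chil3. They held 2 to 12 UMIs of Ly6g, the defining surface gene of neutrophils, and 1 to 4 of Csf1r. None was called a doublet, but the caller had not worked in library 1, from which 4 of them came.

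These 6 cells carried nearly all the calprotectin RNA of the population. S100a8 and S100a9 encode its subunits and are often listed as monocyte genes. The 6 cells held 91.8% of the S100a8 UMIs and 95.8% of the S100a9 UMIs of all members. S100a8 was at 10685, 0, 3020, 6.12, and 35.9 CPM in libraries 1 to 5. Without the 6 cells, its level over all members fell from 5390 to 458 CPM. The remaining level was 532 CPM in library 1 and 636 CPM in library 3, where B cells, which do not make it, were at 1898 and 611 CPM and T cells at 277 and 34.4 CPM. In the other libraries all 3 populations were at most 72.8 CPM. The S100a8 of the other 220 members was thus below the B cell level in library 1, close to it in library 3, and above the T cell level in both. A further 3 members held at least 100 S100a8 UMIs, 1 of them with a single UMI of the granule genes and the others with none. Another pair of members, 1 in library 1 and 1 in library 2, carried 48 and 55 UMIs of natural killer cell genes, among them Gzma.

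**Figure D2:**
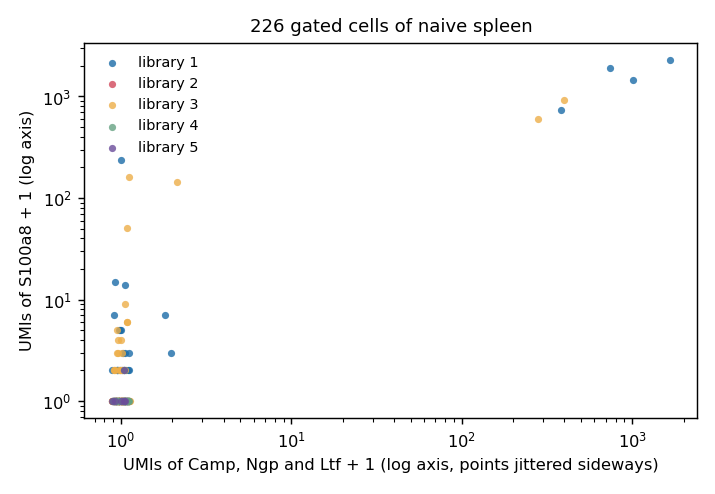
UMIs of S100a8 (vertical axis, log scale, 1 added) against summed UMIs of Camp, Ngp, and Ltf (horizontal axis, log scale, 1 added, points jittered) in each of the 226 members, colored by library. The 6 cells at the upper right belong to libraries 1 and 3, and the other 220 members hold at most 1 UMI of the 3 granule genes.

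Receptors and effector genes of monocytes were found in every library. Ccr2 and Csf1r belong to the gate. Fcer1g, the signaling chain of Fc receptors, was at 1901 to 2222 CPM in the 5 libraries, and Itgam, CD11b, at 226 to 538 CPM. Il6ra, the IL-6 receptor, was at 228 to 394 CPM and Ifngr1, the ligand-binding chain of the IFN-γ receptor, at 430 to 587 CPM. Of the NADPH oxidase, which makes superoxide in phagocytes, the membrane subunits Cybb and Cyba were at 1722 to 2535 and 1096 to 1366 CPM. The cytosolic subunits Ncf1 and Ncf4 were at 152 to 191 and 129 to 287 CPM. Spi1, the transcription factor PU.1, was at 490 to 574 CPM. Inflammatory cytokine RNA was scarce, with Il1b at 35.9 to 82.9 CPM and Tnf with 6 UMIs in 6 cells.

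Some genes moved opposite to Vcan and Prtn3 across the libraries. Apoe, which carries lipid, was at 582, 1319, 664, 1708, and 1542 CPM, lower in libraries 1 and 3 than in the others. Cx3cr1, the fractalkine receptor that is typical of nonclassical monocytes, was at 204, 470, 192, 624, and 538 CPM in the same order. Klf4, a factor required for monocyte formation, was at 156, 387, 257, 373, and 359 CPM. In each of these genes the values of libraries 1 and 3 did not overlap with those of libraries 2, 4, and 5. The split was seen in these data and is described without a test.

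A few members were dividing. After thinning, 13 of 225 members (5.78%, interval 3.11 to 9.68) carried at least 2 of the 5 cell cycle genes Mki67, Top2a, Pclaf, Stmn1, and Birc5, a rule set after the data were seen. There were 8 of 94 cells in library 1 and 5 of 79 in library 3. In libraries 2, 4, and 5 there were 0 of 23, 0 of 24, and 0 of 5 cells, and 0 of 23 still allows a share of up to 14.8%. The same rule found 0 of 91 nonclassical monocytes, which allows up to 3.97%, 0.668% of B cells, and 0.513% of T cells. In cDCs it found 5 of 76 (6.58%, interval 2.17 to 14.7) and in neutrophils 7 of 191 (3.66%, interval 1.49 to 7.41), so these intervals overlapped that of the members. Dividing members were hence seen in the 2 libraries with most members, and the others held too few cells to show a lower share. The 6 granule gene cells were kept in this count. Before thinning they held 13 of the 186 Mki67 UMIs and 31 of the 179 Top2a UMIs of the members. How many of the dividing members were granule gene cells is not given here.

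Classical and nonclassical monocytes of the same spleens were compared next. Nonclassical monocytes were gated by at least 1 UMI of Csf1r and of Lyz2, at least 2 over Ace, Treml4, and Adgre4, no Ly6c2, and the same exclusions, which gave 94 cells. Of the lists, the classical markers and the S100, annexin, and galectin genes were mostly higher in classical monocytes, and the nonclassical markers, among them Nr4a1, and MHC class II genes were mostly lower. UMIs were summed per library and tested with edgeR, with the library as a block, and genes of either gate were left out. At an adjusted p under 0.05, 383 of 1747 genes differed (21.9%). Of these, 176 (10.1% of those tested) were higher in classical monocytes, and 207 (11.8%) were lower. The populations were defined on the same cells, so genes that go with Ly6c2 or Ace were bound to differ. The filter on low counts could also admit a gene through the population where it was high.

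Of the 12 listed markers of classical monocytes, 10 were tested and 9 were higher. Their median log2 difference was 1.99, against -0.01 over all genes tested. F13a1 was at 502 to 1156 CPM in classical and 15.2 to 137 CPM in nonclassical monocytes, a log2 difference of 4.05 ± 0.33 (SE, adjusted p 2.29e-09, higher in 5 of 5 libraries). Fn1 differed by 3.85 ± 0.41 (adjusted p 2.03e-07) and Chil3 by 3.37 ± 0.21 (adjusted p 5.16e-11), and neither overlapped between the populations. Vcan had 867 UMIs in classical monocytes and 1 in nonclassical monocytes, and the ratio per total was 216 (counting interval 38.6 to 8534). Gpr141, an orphan receptor on the list, was at 404 to 682 and 380 to 512 CPM, and its difference of 0.14 ± 0.18 did not pass (adjusted p 0.606).

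The S100, annexin, and galectin genes rose as a group in classical monocytes. All 11 tested genes of the list passed the test in this direction, with a median difference of 1.26. S100a10, which pairs with annexin A2 at the plasma membrane, was at 387 to 829 CPM against 31.0 to 122 CPM (2.81 ± 0.26, adjusted p 2.04e-08). S100a4, linked to cell motility, was at 2058 to 2688 against 834 to 1480 CPM (0.94 ± 0.13, adjusted p 8.60e-06), and Lgals3, galectin-3, at 1651 to 2086 against 590 to 786 CPM (1.5 ± 0.14, adjusted p 4.47e-08). None of these 3 picked genes overlapped between the populations, and the share of all tested genes without overlap is not given here. S100a8 and S100a9 were not among the tested genes of this group. Both had uneven counts in nonclassical monocytes too, with S100a8 at 7566 CPM in library 1 and at most 22.8 CPM in the others. The annexins Anxa1, Anxa2, Anxa5, and Anxa6 and the galectin Lgals1 were among the genes that rose.

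Markers of nonclassical monocytes were lower in classical monocytes. Of the 6 nonclassical markers tested, 5 were lower, namely Itgal, Nr4a1, Pglyrp1, Pou2f2, and Spn. Nr4a1 was at 99.4, 96.7, 100, 184, and 71.7 CPM in classical and 453, 480, 388, 341, and 289 CPM in nonclassical monocytes, with no overlap (-1.86 ± 0.23, adjusted p 1.34e-06). Spn, the sialoprotein CD43, differed by -2.59 ± 0.23 (adjusted p 2.04e-08), and Itgal, the α chain of LFA-1, by -1.94 ± 0.21 (adjusted p 2.02e-07). Cx3cr1, by contrast, was at 192 to 624 CPM in classical and 369 to 600 CPM in nonclassical monocytes. Its difference of -0.48 ± 0.22 missed the threshold (adjusted p 0.126) and turned to 0.08 without libraries 1 and 3. The strongest differences outside the lists were Cd300ld (-3.64 ± 0.29, adjusted p 2.27e-09), a receptor of the CD300 family, Ear2 (-3.58 ± 0.28, adjusted p 2.20e-09), a ribonuclease, and Stap1 (-3.28 ± 0.23, adjusted p 5.26e-10), an adaptor protein.

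**Figure D3:**
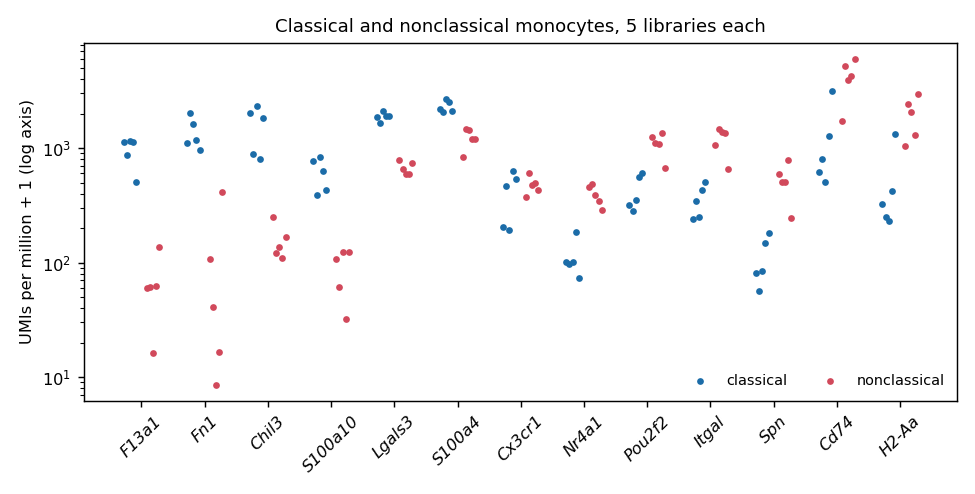
CPM + 1 (vertical axis, log scale) of 13 genes in classical (blue) and nonclassical (red) monocytes, 1 point for each of the 5 naive spleen libraries. F13a1, Fn1, Chil3, S100a10, Lgals3, and S100a4 do not overlap between the populations and are higher in classical monocytes, Nr4a1, Pou2f2, Itgal, and Spn do not overlap and are higher in nonclassical monocytes, and Cx3cr1, Cd74, and H2-Aa overlap.

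Adhesion genes split. Of 12 tested, 3 were higher in classical monocytes, among them Emb and Itgb7, and Cxcr4, Itga4, Itgal, Itgb1, and Itgb2 were lower. Emb, the basigin-like protein embigin, was at 323 to 603 against 140 to 200 CPM (1.67 ± 0.22, adjusted p 3.02e-06). Cxcr4, the receptor for bone marrow CXCL12, was at 20.7 to 108 against 100 to 190 CPM (-1.93 ± 0.36, adjusted p 0.000295).

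Of 17 transcription factors tested, 6 were lower and 1 was higher. Klf2, a factor of quiescence, was at 300 to 630 against 638 to 1340 CPM (-0.99 ± 0.21, adjusted p 0.00103), without overlap. Klf4 differed by -1.35 ± 0.19 (adjusted p 1.29e-05). Cebpd was the gene that was higher (1.23 ± 0.35, adjusted p 0.0142) and Cebpb was lower (-0.55 ± 0.17, adjusted p 0.0186). Both C/EBP factors missed the threshold with DESeq2, with adjusted p of 0.134 for Cebpd and 0.0548 for Cebpb. Of 8 interferon-stimulated genes tested, 5 were higher, among them Ifi27l2a (1.46 ± 0.21, adjusted p 8.86e-06), and none was lower.

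MHC class II genes were lower in classical monocytes, with 5 of 7 tested passing and a median difference of -2.0. H2-Aa, the α chain of I-A, was at 322, 249, 229, 422, and 1327 CPM in classical and 1049, 2440, 2069, 1288, and 2947 CPM in nonclassical monocytes (-2.23 ± 0.23, adjusted p 1.68e-07). Cd74, the invariant chain that fills the class II groove, was at 505 to 3121 against 1740 to 5999 CPM (-2.0 ± 0.19, adjusted p 4.47e-08). Within every library both genes were lower in the classical cells, but the summed level of library 5 reached the range of the nonclassical cells. There, 1 cell with at least 3 class II UMIs after thinning was at 16160 CPM of Cd74. The 3 cells of library 5 without class II UMIs were at 118 CPM, so its level did not describe all 6 members. Ciita, the coactivator that turns on these genes, was lower in 4 of 5 libraries (-1.44 ± 0.36, adjusted p 0.00460).

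Against cDCs the contrast was wider. These were gated by at least 1 UMI of Flt3 and of Itgax or Zbtb46, at least 3 over H2-Aa, H2-Ab1, and H2-Eb1, no Ly6c2, and the same exclusions, and there were 77 of them. Of 2026 genes, 770 (38%) differed, with 450 (22.2%) higher in classical monocytes and 320 (15.8%) lower. This split rested on the scaling, since TMM factors gave 362 higher and 417 lower, as they moved the median log2 difference of all genes from 0.12 to -0.03. All 10 classical markers tested were higher. Of the 14 listed cDC markers, 6 were tested, namely Batf3, Clec9a, Dpp4, Naaa, Wdfy4, and Xcr1, and all were lower. The low-count filter could admit a gene through the population where it was high, and both populations were gated on lineage genes. These directions are thus no independent result. F13a1 had UMIs in 1 of 5 cDC libraries (12 CPM) and differed by 8.57 ± 0.40 (adjusted p 1.94e-11). Vcan had none in cDCs, so it was at least 94.7-fold higher in classical monocytes, against a floor of 3 counts over the group. In the other direction, Xcr1 was at 179 to 481 CPM in cDCs and in 1 library of classical monocytes (4.81 CPM). Apol7c, at 551 CPM over all cDCs, had no UMI in the members and was at least 292-fold lower.

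Effector and lineage genes set classical monocytes apart from cDCs. Cebpb was at 466 to 635 CPM in classical monocytes and 0 to 36.5 CPM in cDCs (6.01 ± 0.41, adjusted p 1.88e-09). Of 19 transcription factors tested, 9 were higher in classical monocytes, among them Cebpb, Klf2, Klf4, Nr4a1, and Pou2f2, and 5 were lower. Batf3, Id2, Irf8, Relb, and Runx3, factors of dendritic cell identity or maturation, were the lower ones, for example Id2 at 79.6 to 159 against 237 to 913 CPM (-2.63 ± 0.29, adjusted p 7.97e-07). Of the NADPH oxidase list, 6 of 8 tested genes were higher, among them Cybb at 1722 to 2535 against 156 to 894 CPM (2.66 ± 0.25, adjusted p 1.14e-07). All 3 Fc receptor genes tested and 9 of 11 lysosomal genes were higher as well. All 7 MHC class II genes tested were lower, but the cDC gate asked for class II RNA, so this is no independent result. Of 9 heat shock genes, 6 were lower. Such RNA can respond to tissue handling, whose part in this difference was not tested.

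A minority of the classical monocytes carried class II RNA. After thinning, 190 of 225 members (84.4%) held no UMI of H2-Aa, H2-Ab1, or H2-Eb1, 17 held 1 or 2, and 18 held at least 3 (8.0%, interval 4.81 to 12.3). The 18 cells came from all libraries, with 9, 1, 3, 4, and 1 cells. T cells, which should lack these genes, reached 3 UMIs in 0.460% of cells and nonclassical monocytes in 24.2%, so the share of the members was above that of T cells, at median depths of 6580 and 3855 UMIs before thinning. Neutrophils reached 3 UMIs in 6 of 191 cells (3.14%, interval 1.16 to 6.71), which overlaps the interval of the members, and 84.3% of them held none. The 18 cells lay low in Ly6c2, the gene of the gate, with a thinned median of 0 UMIs and a maximum of 2, against 2 and 14 in the 190 class II-negative cells. They were also deeper, with a median of 8832.5 against 6580 UMIs, and held 1 granule gene cell, against 4 among the negative cells. The part of these differences in the calls was not tested. Between the 18 and the 190 cells, 7 of 925 other genes passed (0.757%), 2 higher (0.216%) and 5 lower (0.541%). Cd74 was at 3892, 4234, 5432, 5646, and 16160 CPM in class II-high and 101, 206, 158, 245, and 118 CPM in class II-negative cells (5.01 ± 0.16, adjusted p 4.70e-19). Tmem176a, a membrane protein of myeloid cells, was also higher (1.98 ± 0.35, adjusted p 0.00215).

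Among the 5 genes that fell, Fn1, Hp, and F13a1 are listed classical markers. Fn1 was at 463, 907, 370, 351, and 570 CPM in class II-high cells and 1259, 2068, 1768, 1411, and 829 CPM in class II-negative cells of the same libraries (-1.66 ± 0.20, adjusted p 5.40e-06). It was lower in 5 of 5 libraries, although the high cell of library 2 was above the negative cells of library 5. Hp differed by -1.38 ± 0.31 (adjusted p 0.0233), Gda, guanine deaminase, by -1.30 ± 0.31 (adjusted p 0.0359), and F13a1 by -1.15 ± 0.23 (adjusted p 0.00591). Without the library block, Hp, Gda, and F13a1 all missed the threshold in edgeR (adjusted p 0.336, 0.148, and 0.148). Hp and Gda also missed it with DESeq2 (0.0564 and 0.126), and Hp and F13a1 with more excluding genes (0.120 and 0.0897). Each was also lost in at least 1 setting with a single library left out. F13a1 was lower in 4 of 5 libraries and went the other way in library 5, at 570 CPM in the class II-high cell and 178 CPM in the negative cells. With 1 class II-high cell each in libraries 2 and 5, these rest on few cells. Only Cd74 passed without libraries 1 and 3 (1 gene in all), and Fn1 was then at -1.44 with adjusted p 0.254. Cx3cr1 and Apoe, at 0.20 ± 0.29 and 0.24 ± 0.21, did not pass (adjusted p 0.877 and 0.753).

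Whether genes passed between cells of high and low Ly6c2 depended on the setting. The cells of each library were split in 3 equal parts by thinned Ly6c2 count, and the upper and lower parts, 73 cells each, had medians of 4 and 1 UMIs. With the filter on low counts and all members, 0 of 835 genes passed in edgeR (0%), although 92 had an unadjusted p under 0.05 and DESeq2 called 3, Hp, Gngt2, and F13a1. Without the filter 73 of 11874 passed in edgeR, and without the 6 granule gene cells 7 of 834. F13a1 was at 1458, 779, 1436, 1450, and 570 CPM in the upper part and 770, 551, 843, 885, and 0 CPM in the lower (0.79 ± 0.16, adjusted p 0.0571, higher in 5 of 5 libraries). Gngt2, a G protein subunit abundant in nonclassical monocytes, was lower in 5 of 5 libraries (-0.93 ± 0.18, adjusted p 0.0571). Itgal, at -0.88 ± 0.21, was lower in 5 of 5 (adjusted p 0.0748). The 4 class II genes tested had a median difference of -2.32. H2-Aa was at 9.32, 0, 13.9, 17.7, and 7034 CPM in the upper part and 905, 571, 641, 1014, and 0 CPM in the lower (-3.03 ± 0.87, adjusted p 0.140), so it was lower in libraries 1 to 4, and only the single cells of library 5 went the other way. Library 5 gave 1 cell to each part, and without it 35 genes passed, among them F13a1, Gngt2, and H2-Aa (-5.98 ± 0.32, adjusted p 2.44e-14). H2-Aa also passed without library 2 or library 4 (adjusted p 0.00706 and 0.00596). The class II-high cells described above held at most 2 thinned Ly6c2 UMIs, and the 6 members with most H2-Aa held 57.1% of its UMIs. The class II difference thus restates those few cells and is no independent result. Of the dividing cells, 7 were in the upper and 1 in the lower part.

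The same gate in rejecting kidney found 301 of 5377 CD45+ cells in kidney library 1 (5.60%, interval 5.0 to 6.25) and 1938 of 6571 in library 2 (29.5%, interval 28.4 to 30.6), so the 2 libraries were far apart, and most of the 2239 cells came from library 2. It asks how resting monocytes differ from cells of this gate in an inflamed graft. Naive spleen members had less class II, glycolytic, and pattern recognition RNA, less of most interferon-stimulated genes, and more of the classical markers Fn1 and Chil3. Of 7564 genes, 3248 differed (42.9%), with 1273 (16.8%) higher and 1975 (26.1%) lower in spleen. Tissue, host strain, digestion, and rejection differed together and cannot be told apart. In the kidney, the 9 independent markers were fewer, with a median of 3 and 33.1% of cells with at least 4, at a median depth of 2576 UMIs. Most cells of the kidney gate thus carried fewer than 4 of the classical markers at this depth.

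RNA makeup moved with the tissue in other cells too. Mitochondrial UMIs were 2.80% to 3.6% of the members and 0.604% to 0.903% of the kidney cells, and 3.50% to 4.43% against 1.33% to 1.34% in T cells. Ribosomal protein UMIs were 20.4% to 22.4% against 10.2% to 11.7%, and 38.3% to 40.5% against 17.6% to 18.1% in T cells. Cmss1, a gene of ribosome biogenesis, was at 0 to 6.91 CPM in the members and 2544 and 2424 CPM in the kidney cells, but T cells showed the same contrast, with at most 14.4 CPM in spleen and 1602 and 1118 CPM in kidney. Malat1, a nuclear RNA, was at 9542 to 16183 CPM in the members and 22003 and 25414 CPM in the kidney cells, while T cells overlapped, at 22434 to 28398 and 11472 and 30118 CPM. Whether intronic reads were counted is not given in the sources used here. The part of preparation and of read counting in any gene below was not tested.

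All 11 tested genes of the class II list, 8 of class II presentation and the costimulatory Cd40, Cd80, and Cd86, were lower in naive spleen, with a median difference of -3.04 (-0.08 over all genes). H2-Aa was at 322, 249, 229, 422, and 1327 CPM in spleen and 3970 and 2598 CPM in kidney (-3.04 ± 0.33, adjusted p 3.06e-08). H2-Eb1, the β chain of I-E, was at 226, 20.7, 114, 159, and 1327 CPM against 2923 and 2306 CPM (-3.57 ± 0.51, adjusted p 2.09e-06). Cd74 was at 505 to 3121 CPM against 10993 and 9880 CPM (-3.22 ± 0.34, adjusted p 1.90e-08), and Ciita at 36.7 to 215 against 362 and 381 CPM (-2.73 ± 0.26, adjusted p 2.77e-09). The tissues did not overlap in any of these picked genes, and the share of all tested genes without overlap is not given here. Per thinned cell, 1795 of 2018 kidney cells (88.9%, interval 87.5 to 90.3) held at least 3 class II UMIs, against the 8.0% of spleen members. T cells of the kidney also held more H2-Aa than those of the spleen, at 478 and 181 against 16.7 to 54.7 CPM, the same direction as in the gated cells. The H2 haplotypes of the hosts differed as well, and how reads of the DBA/2J alleles mapped to a B6 genome was not tested.

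**Figure D4:**
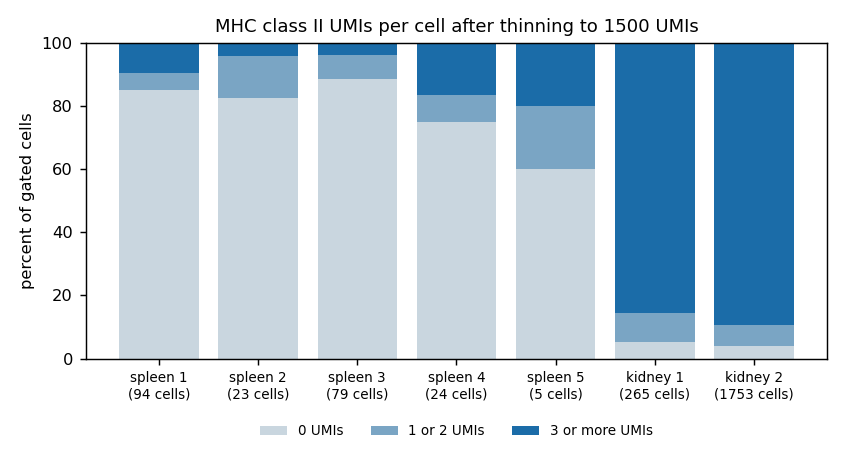
Percent of gated cells (vertical axis) with 0, 1 or 2, and 3 or more UMIs of H2-Aa, H2-Ab1, and H2-Eb1 after thinning to 1500 UMIs, in 5 naive spleen and 2 rejecting kidney libraries, with the number of cells under each bar. Cells with 3 or more UMIs are 20% or less of every spleen library and 85.7% and 89.4% of the kidney libraries.

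Costimulatory genes bind receptors on T cells during antigen presentation. Cd86, the CD28 ligand B7-2, was at 62.5, 34.5, 65.1, 55.1, and 0 CPM in spleen against 491 and 355 CPM (-2.89 ± 0.25, adjusted p 3.79e-10). Cd40 differed by -3.13 ± 0.35 (adjusted p 5.24e-08) and Cd80 by -2.94 ± 0.51 (adjusted p 3.38e-05).

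Most interferon-stimulated genes were lower in spleen. Of 23 tested, 15 were lower and 4 higher, against 26.1% and 16.8% of all genes tested. The lower ones included Ifit1, Ifit2, Ifit3, Isg15, Oasl2, and Rsad2, known as type I interferon targets, as well as Gbp2 and Irgm1. Gbp2, a guanylate-binding GTPase of the interferon-γ response, was at 24.5 to 58.8 CPM against 1591 and 1423 CPM (-5.05 ± 0.23, adjusted p 1.67e-15). Iigp1, an immunity-related GTPase, had no UMI in the members and 15566 in the kidney cells, which made it at least 1279-fold lower against a floor of 3 counts over the group. In T cells Iigp1 was at 15.6 to 28.6 CPM in spleen and 132 and 150 CPM in kidney. Cxcl9, a chemokine for activated T cells, had 3 UMIs against 24185, a ratio of 1987 (counting interval 680 to 9634), and Cxcl10 had 8 against 5133, a ratio of 158 (80.2 to 366).

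Not all of these genes were low in the resting cells, but 16.8% of all genes tested were higher in spleen too. Ifitm3, which blocks viral entry, was at 3024, 3536, 3220, 3569, and 3838 CPM in spleen and 2141 and 2784 CPM in kidney (0.47 ± 0.16, adjusted p 0.0168). Ifitm6, its relative in myeloid cells, was at 428 to 732 CPM against 142 and 140 CPM (2.04 ± 0.23, adjusted p 4.38e-08). Bst2 and Ifi27l2a were the other two that were higher, by 0.86 ± 0.25 (adjusted p 0.00567) and 0.63 ± 0.25 (adjusted p 0.0432). Irf7 was lower (-0.97 ± 0.23, adjusted p 0.00112), but without kidney library 2 its adjusted p was 0.116.

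The promoters of some of these genes show the elements through which class II and interferon genes are known to be controlled. Windows of 250 bases before the transcription start were read from the RefSeq promoter table (GRCm38.p6), 5′ to 3′ on the strand of the gene. The sequences of 2 class II genes are shown with the Y box letters CTGATTGG in capitals, and those of 2 interferon-stimulated genes with the interferon-stimulated response element (ISRE) core, GAAAC and GAAA with any 1 base between them, in capitals. Both strands were searched. H2-Aa lies on the minus strand (chr17:34287824-34288073) and H2-Eb1 on the plus strand (chr17:34305617-34305866). Isg15 (chr4:156200819-156201068) and Irgm1 (chr11:48871421-48871670) lie on the minus strand.
H2-Aa: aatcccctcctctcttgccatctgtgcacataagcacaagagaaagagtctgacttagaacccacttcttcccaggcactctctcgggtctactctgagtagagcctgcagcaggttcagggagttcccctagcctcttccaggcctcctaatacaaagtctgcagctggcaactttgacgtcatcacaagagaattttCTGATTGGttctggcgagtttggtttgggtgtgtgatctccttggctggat
H2-Eb1: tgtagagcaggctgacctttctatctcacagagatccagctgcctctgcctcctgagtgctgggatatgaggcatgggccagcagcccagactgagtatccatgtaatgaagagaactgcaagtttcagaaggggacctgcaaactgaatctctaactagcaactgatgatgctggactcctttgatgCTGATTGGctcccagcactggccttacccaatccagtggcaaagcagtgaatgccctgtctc
Isg15: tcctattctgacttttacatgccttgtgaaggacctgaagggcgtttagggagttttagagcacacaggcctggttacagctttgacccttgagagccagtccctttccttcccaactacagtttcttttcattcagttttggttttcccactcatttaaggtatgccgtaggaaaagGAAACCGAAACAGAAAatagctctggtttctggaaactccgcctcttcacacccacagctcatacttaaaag
Irgm1: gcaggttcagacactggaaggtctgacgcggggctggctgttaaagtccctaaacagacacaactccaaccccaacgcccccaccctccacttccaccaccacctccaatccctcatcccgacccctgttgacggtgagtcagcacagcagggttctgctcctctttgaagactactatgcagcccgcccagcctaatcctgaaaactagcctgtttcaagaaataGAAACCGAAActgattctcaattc
The Y box began 51 bases before the start of H2-Aa and 62 before that of H2-Eb1. Isg15 held 2 overlapping ISRE cores, 72 and 66 bases before the start, and Irgm1 held 1 at 24 bases. Among 32851 promoters in the table, 3.83% held the Y box letters and 0.569% the ISRE core letters. The table matched 9 of the 13 genes of the class II list, 7 of them among the 11 that were lower in spleen, and 22 of the 24 listed interferon-stimulated genes, 14 of them among the 15 lower. The Y box was in 3 of the 9 and in 2 of the 7 class II promoters, and the ISRE core in 7 of the 22 and in 5 of the 14 interferon-stimulated promoters. Isg15, a ubiquitin-like protein, was at 77.0 to 108 CPM in spleen and 240 and 317 CPM in kidney (-1.60 ± 0.22, adjusted p 1.19e-06). Irgm1, a GTPase of vacuole defense, was at 20.7 to 143 against 138 and 180 CPM (-2.45 ± 0.30, adjusted p 2.30e-07), and library 5, at 143 CPM, overlapped with the kidney.

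Glycolysis genes were lower in naive spleen in 16 of 18 tested, with Eno1 the gene that was higher. Hk2, the inducible hexokinase, was at 59.3, 131, 74.6, 61.2, and 71.7 CPM in spleen against 433 and 412 CPM in kidney (-2.48 ± 0.23, adjusted p 2.22e-09). Hif1a, the oxygen-regulated factor that drives this pathway, was at 35.9 to 119 against 372 and 451 CPM (-2.08 ± 0.22, adjusted p 1.99e-08). T cells of the kidney were also above those of the spleen in Hif1a, at 358 and 391 against 56.0 to 73.7 CPM. Eno1, enolase 1, was at 179 to 300 against 130 and 165 CPM (0.74 ± 0.22, adjusted p 0.00839), a call that was lost without kidney library 1 (adjusted p 0.0763). Slc2a1, the glucose transporter GLUT1, was at 0 to 17.5 against 157 and 131 CPM (-3.66 ± 0.35, adjusted p 3.81e-09).

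Sensing and effector genes were lower as well. Of 21 pattern recognition genes, 14 were lower in spleen and none was higher. Tlr4, the receptor for lipopolysaccharide, was at 0 to 27.6 against 79.1 and 83.3 CPM (-2.68 ± 0.36, adjusted p 9.15e-07), whereas Tlr2 was at 42.8 to 108 against 87.2 and 90.0 CPM and did not pass (adjusted p 0.219). Of 17 cytokines and chemokines, 12 were lower and 2, Ccl6 and Ccl9, higher in spleen. Among the lower ones was Il1b at 35.9 to 82.9 against 861 and 469 CPM (-3.20 ± 0.24, adjusted p 4.78e-11). Ctss, cathepsin S, which trims the invariant chain, was at 1184 to 1741 against 5710 and 5578 CPM (-1.98 ± 0.15, adjusted p 4.57e-11).

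The 1273 genes that were higher in naive spleen included most of the classical markers. Of 11 classical markers tested, 7 were higher, with a median difference of 1.85. Chil3 was at 796 to 2333 against 162 and 82.1 CPM (3.73 ± 0.38, adjusted p 8.16e-09), and Fn1 at 969 to 2031 against 115 and 40.0 CPM (4.28 ± 0.36, adjusted p 2.89e-10). Vcan did not pass, at 0.49 ± 0.39 (adjusted p 0.334), and Gpr141 was lower in spleen (-0.97 ± 0.19, adjusted p 0.000193). Klf2 was at 300, 421, 545, 630, and 574 CPM in spleen against 80.5 and 76.1 CPM (2.61 ± 0.27, adjusted p 9.56e-09), and T cells also had more Klf2 in spleen, at 536 to 705 against 40.7 and 19.2 CPM. Zfp36, tristetraprolin, which destabilizes cytokine mRNA, was at 279 to 601 against 99.3 and 52.5 CPM (2.59 ± 0.29, adjusted p 5.13e-08). Cx3cr1 was at 192 to 624 against 91.2 and 78.6 CPM (2.10 ± 0.35, adjusted p 2.09e-05). None of Chil3, Fn1, Klf2, Zfp36, and Cx3cr1 overlapped between the tissues. These genes were picked, and 42.9% of all tested genes differed between the tissues. How many of all tested genes did not overlap is not given here. Of 16 immediate early genes, which can rise during tissue handling, 8 were higher and 4 lower in spleen.

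**Figure D5:**
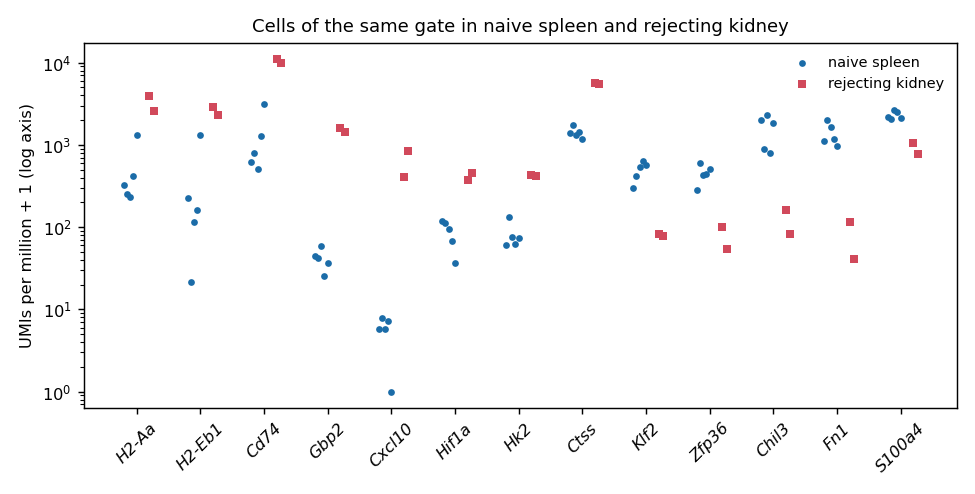
CPM + 1 (vertical axis, log scale) of 13 genes in cells of the same gate, with 1 point for each of 5 naive spleen libraries (blue circles) and 2 rejecting kidney libraries (red squares). The tissues do not overlap in any of the genes shown, and Chil3, Fn1, S100a4, Klf2, and Zfp36 are higher in spleen, and the other 8 are higher in kidney.

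Among the genes with the largest folds toward spleen, Ramp1, a partner protein of the calcitonin gene-related peptide receptor, was at 137 to 215 against 13.4 and 5.99 CPM (4.38 ± 0.33, adjusted p 4.84e-11). Pdlim1, a cytoskeletal adaptor, was at 89.8 to 215 against 4.02 and 4.05 CPM (4.85 ± 0.37, adjusted p 4.78e-11). Both were higher in every spleen library. Some neutrophil and cell cycle calls toward spleen, in contrast, rested on few cells or libraries. Of 13 neutrophil genes, 10 were higher in spleen, but Camp, Ngp, and Ltf had their UMIs almost only in the 6 granule gene cells of libraries 1 and 3. Ltf and Lcn2 missed the threshold with DESeq2 (adjusted p 0.175 and 0.291). Of 13 cell cycle genes, 9 were higher in spleen. Stmn1 was at 175, 0, 102, 0, and 71.7 CPM against 8.05 and 14.1 CPM (2.87 ± 0.56, adjusted p 0.000147), so the libraries overlapped. Mki67 was at 213, 0, 76.2, 12.2, and 108 CPM against 41.6 and 37.5 CPM (1.35 ± 0.49, adjusted p 0.0271) and missed the threshold with DESeq2 (adjusted p 0.666). By the per-cell rule, 25 of 2018 kidney cells (1.24%, interval 0.803 to 1.82) were dividing, against 5.78% of the members, and the dividing members came from libraries 1 and 3.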

How the data were processed

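The authors made 10x Genomics 3' libraries, mapped reads with Cell Ranger (build mm10 per the submitters' processing notes, version not given in the sources used here), filtered cells in Seurat by limits not given, and deposited raw UMI counts. The naive spleen matrix held 17644 genes, all among the 32285 of the kidney matrix. Libraries were told apart by barcode tags. Counts were summed per library and population and tested in edgeR 4.0.16 (R 4.3.3) with plain totals, filterByExpr, its quasi-likelihood F test, and p-values adjusted by Benjamini-Hochberg over all genes tested (threshold 0.05). DESeq2 1.42.0 was an alternative. The library was a block within the spleen, because both populations of a pair came from 1 library. CPM of the kidney comparison were taken over shared genes. Class II, Ighm, and dividing shares used cells thinned to 1500 UMIs with numpy 2.4.6. The shares of cells with Fn1, with Prtn3, or with at least 4 of the 9 markers used all UMIs, so their depth was not matched. Other steps used scanpy 1.11.5 and scipy 1.17.1. Thinning left out 1 member, 3 nonclassical monocytes, and 221 kidney cells. Neutrophils were gated by Csf3r, at least 10 UMIs of S100a8 and S100a9, and Retnlg, Cxcr2, or Mmp9, without Csf1r.

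Named genes are members of 31 gene lists and the 10 genes with the largest fold in each direction among called genes of at least 100 CPM. The members and lists were chosen with earlier results of these data known. Genes named beside a count and the granule and dividing rules were chosen after their values were seen. Overlap between groups is stated for named genes only, and the share of all tested genes without overlap is not given here. The test was checked on simulated data. Some members of the lists are counted but their values are not reported here.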

Additional observations from a re-analysis of the deposited data

Results flagged for a closer look

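Of 36 sets of 5 library values in naive spleen, 4 held a library whose gap to its neighbor was large for the whole range (Dixon's ratio above 0.71). Most sets were summed lists in classical monocytes, and the rest were their depth and the shares of the 4 gated myeloid populations. Chance flags about 1 in 20 such sets. For the summed neutrophil list the ratio was 0.730, with library 1 at 28247 CPM, library 3 at 7800 CPM, and the others at 251 to 262 CPM. For the NADPH oxidase and granule list it was 0.730 as well, with library 1 at 12439 CPM and the others at 7731 to 9002 CPM. Without the 6 cells with granule genes, the neutrophil list reached at most 1552 CPM and the oxidase and granule list 8813 CPM. For the natural killer cell list the ratio was 0.760, with library 2 at 421 CPM, where 1 of 23 cells carried 55 UMIs of such genes. For the MHC class II list it was 0.812, with the 6 cells of library 5 at 7892 CPM and the others at 1454 to 2663 CPM. In library 5, 1 of 5 thinned cells held at least 3 class II UMIs.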

How the results depend on the processing

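The share of classical monocytes ran from 0.370% to 0.587% when 1 library was left out and moved by less than 1 SD under the other alternatives, among them 0.286% when cells were thinned before gating. For the comparison with nonclassical monocytes, the number of genes that differed was 207 with DESeq2, 158 with thinned cells, and 102 without libraries 1 and 3 (chosen after seeing the data). Leaving out 1 library gave 193 to 547, with 243 without library 1 and 193 without library 3. For cDCs it was 142 with thinned cells, 1513 without a filter on low counts, and 638 to 859 with 1 library left out. For rejecting kidney it was 1371 with thinned cells, 1560 without libraries 1 and 3, and 2369 to 3250 with 1 library left out. Where a kidney library was left out, the lone one was assumed to vary like the others. For upper against lower Ly6c2 it was 3 with DESeq2, 73 without the filter, 7 without the 6 granule gene cells (chosen after seeing the data), and 0 to 35 with 1 library left out (23, 31, and 35 without libraries 2, 4, and 5). For class II-high against class II-negative cells it was 4 with DESeq2, 23 without the filter, 4 with thinned cells, 3 with more excluding genes, 1 without libraries 1 and 3, and 3 to 17 with 1 library left out (3, 17, and 13 without libraries 1, 2, and 4). Fewer cells or genes were tested in the thinned and left-out settings, and the cause of the other changes was not tested.

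Without the library block the counts were 401 for nonclassical monocytes, 822 for cDCs, 0 for Ly6c2, and 4 for class II. Of 1567 values of 114 single-gene results, 1498 kept their direction and side of the threshold, 37 lost and 31 gained the threshold, and 1 reversed, namely Cx3cr1 against nonclassical monocytes, at 0.084 without libraries 1 and 3. With 6 members in library 5 and 2 kidney libraries, low genes are measured coarsely, and intervals cover counting error only.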

Other observations

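Genes that also varied among the classical monocyte libraries included the lipid gene Apoe and the glycolysis list. The summed glycolysis list was at 3732 and 3516 CPM in libraries 1 and 3 and at 2424 to 2638 CPM in libraries 2, 4, and 5. The immediate early list was lowest in library 1, at 3645 CPM, and highest in library 2, at 6223 CPM. The interferon-stimulated list was even, at 7964 to 8820 CPM in the 5 libraries, as was the lysosomal list, at 6608 to 7425 CPM. The red pulp macrophage list, whose cells share the red pulp with these monocytes, was at 108 to 615 CPM in the members and at 780 to 942 CPM in nonclassical monocytes.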
